A study of Mus musculus with 778 samples.

Results

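The first and the last stage of oocyte growth were compared in single-cell RNA-seq of mouse oocytes: non-growing oocytes (NGO, 46 cells) and fully-grown oocytes (FGO, 56 cells). They were chosen by the stage in the name of each cell, out of 223 oocytes with RNA counts, the others being 51 GO1, 26 GO2 and 44 GO3 growing oocytes. All oocytes came from ovaries of wild-type ICR mice and were picked by hand according to size. NGO were under 20 µm wide and came from females 3 to 4 days old, and FGO were over 70 µm wide and came from females 3 to 4 weeks old, so growth and the age of the animal cannot be told apart. GO1 (30 to 45 µm), GO2 (50 to 55 µm) and GO3 (60 to 65 µm) came from females of the same age as FGO, so NGO differ in age from every other stage. The cell names do not give the library, of which there were 4, so each stage was treated as 1 pooled sample. There is no replicate of a stage, no test was run, and every SD below is the spread over oocytes of a stage (n = 46 for NGO, n = 56 for FGO).

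A non-growing oocyte rests in a primordial follicle, arrested in the first meiotic prophase, with the chromosome pairing of fetal life behind it. During growth it builds the zona pellucida, stores mRNA and protein for the embryo and lays down most of its DNA methylation. When fully grown it has become able to resume meiosis, and it is transcriptionally quiet or close to it, so its mRNA is largely a store.

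Levels are given as CPM, the UMIs of a gene per 1000000 UMIs of a cell, averaged over the cells of a stage. A UMI is a tag that marks 1 captured RNA molecule. CPM is a share of the captured RNA, and the far larger amount of RNA in a grown oocyte does not enter it. NGO held 51400 to 1482980 UMIs per cell (median 540432) and FGO 61555 to 3828823 (median 792312). The oocyte identity was plain in both stages. *Zp3*, a zona pellucida protein, averaged 11549 ± 1407 CPM over NGO and 8227 ± 2616 CPM over FGO. *Ddx4*, a germ cell RNA helicase, had UMIs in 46 of 46 NGO and 56 of 56 FGO. Of 20 granulosa cell markers, 2 reached 10 CPM. These were *Esr2* (10.8 CPM in NGO, 74.4 CPM in FGO) and *Krt8* (8.19 and 17.3 CPM). The defining marker *Amh* had a UMI in 1 NGO and 1 FGO, and *Foxl2* was at 0.180 and 0.468 CPM. The summed granulosa markers ranged from 0 to 92.6 CPM over NGO and from 0 to 288 CPM over FGO. No stroma or theca marker of 12 reached 10 CPM, and of 12 blood and endothelial markers only *Pecam1* did, at 15.9 CPM in FGO.

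Some FGO stood close to NGO. Over 8055 genes, each cell was correlated (Pearson, log2(CPM + 1)) with the mean of the other cells of its own stage and with the mean of the other stage. All 46 NGO were nearer to NGO, by 0.0648 or more. Of the 56 FGO, 1 was nearer to NGO and 5 had the 2 correlations within 0.05 of each other. These 5 cells had 226086 to 784761 UMIs, all under the FGO median of 792312. They were chosen for likeness to NGO over genes that include those named next, so these levels follow in part from the choice. They held 88.1 to 243 CPM of *Sohlh1*, against 0 to 97.2 CPM in the other 51 FGO, and 581 to 1632 CPM of *Oog3*, against 953 to 4289 CPM. Their median of the nuclear RNA *Malat1* was 3306 CPM, against 1105 CPM in the other FGO. Single other FGO reached more of it, up to 7759 CPM against 4806 CPM in the 5. The median of the ribosomal precursor *Rn45s* was 1470 against 550 CPM. The part of these RNAs in the likeness to NGO was not tested. The main counts are given with and without them.

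**Figure D1:**
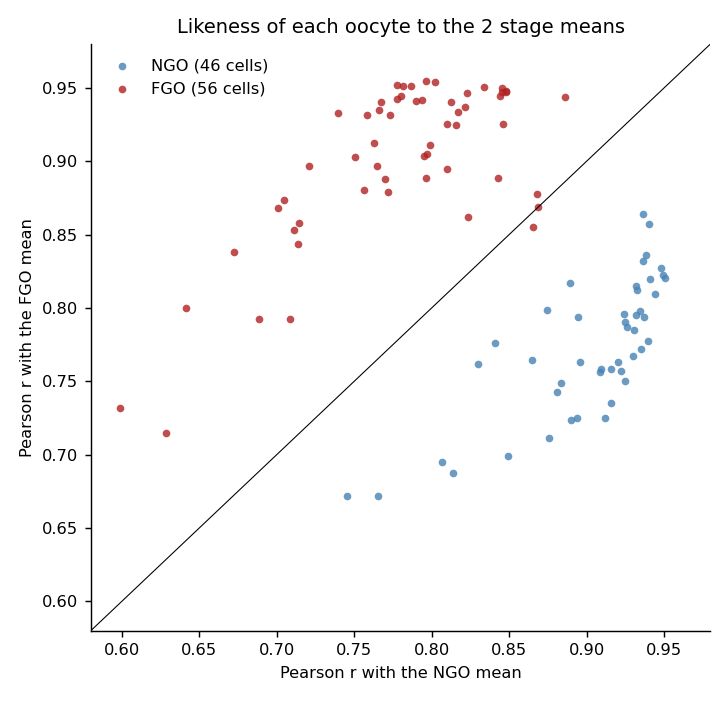
Pearson correlation of each oocyte with the NGO mean (horizontal axis) and with the FGO mean (vertical axis), over log2(CPM + 1) of 8055 genes. A cell is left out of its own mean, points are cells, and the line marks equal correlation. All 46 NGO lie below the line, and 1 of the 56 FGO lies below it too.

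Most genes were within 2-fold of each other at both ends of growth. Of 8055 genes with a mean of at least 10 CPM in NGO or FGO, 5637 (70.0%) differed by less than 2-fold. A total of 803 genes (9.97%) were at least 2-fold higher in FGO and 1615 (20.0%) at least 2-fold lower. At 4-fold or more there were 185 higher and 314 lower genes, and at 8-fold or more 55 in each direction. Without the 5 FGO nearest NGO the counts were 860 and 1729. The middle gene was itself lower in FGO, with a median log2 ratio of FGO over NGO of -0.23. Scaling by the bulk of genes moved every log2 ratio up by 0.17 (TMM) or 0.16 (median of ratios). These factors came from the summed UMIs of each stage and were applied to the mean CPM, so they need not centre it. With TMM, 1090 genes were higher and 1235 lower, so 46.9% of the called genes were higher in FGO, against 33.2% with plain CPM.

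**Figure D2:**
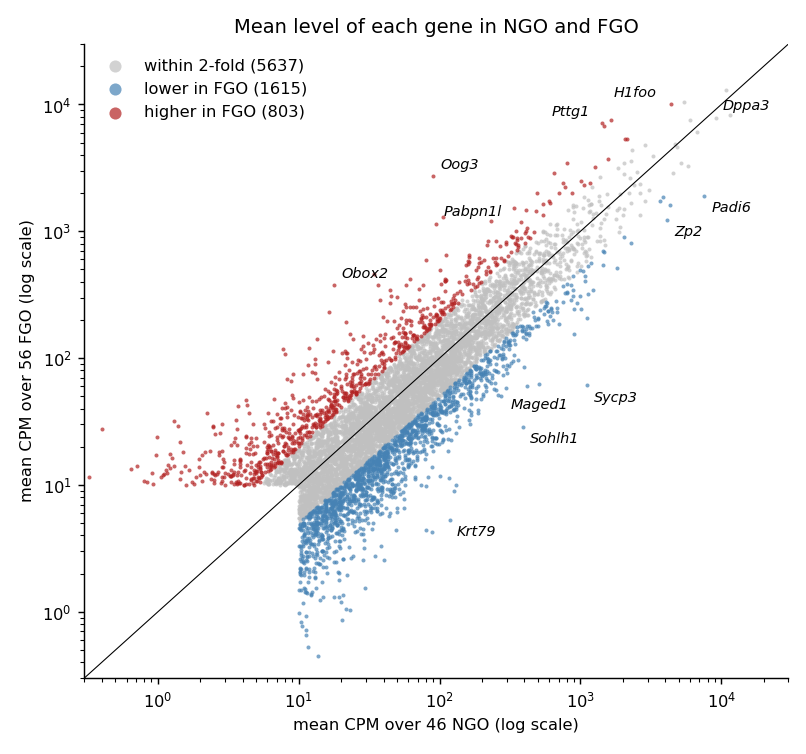
Mean CPM of 8055 genes over 46 NGO and 56 FGO, both axes on a log scale. Red points are the 803 genes at least 2-fold higher in FGO, blue points the 1615 at least 2-fold lower, and grey points the rest. *Oog3* and *Obox2* lie far above the line of equality, and *Krt79* and *Sycp3* far below it.

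The RNA of FGO was held by fewer genes. When each cell was thinned to 50000 UMIs, the number of genes that held 50% of the UMIs had a median of 547 in NGO (range 437 to 609) and 424 in FGO (range 230 to 594). Genes detected per thinned cell had a median of 6863 in NGO and 6341 in FGO, with overlapping ranges of 6457 to 7065 and 4439 to 7028. On both measures the range was wider over FGO than over NGO, and single cells set the ends of a range.

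The largest differences towards FGO lay in oocyte-specific multigene families. *Oog3*, an oogenesin of the leucine-rich repeat family, ranged from 1.65 to 262 CPM over NGO (median 78.4) and from 581 to 4289 CPM over FGO (median 2827). No NGO reached the lowest FGO, and the mean was 30.3-fold higher in FGO. From summed UMIs the ratio was 26.7-fold, with a 95% interval of 25.7 to 27.8 that covers counting error only. *Obox2*, an oocyte homeobox gene, ranged from 0 to 106.9 CPM over NGO (median 8.81) and from 84.1 to 748 CPM over FGO (median 340). The stages overlapped only at these ends, and the mean was 21-fold higher in FGO. *Obox1* averaged 7.99 ± 10.4 CPM in NGO and 107.5 ± 40.8 CPM in FGO. *Nlrp9c*, a member of the NLR family, averaged 7.73 ± 11.1 and 118.9 ± 58.5 CPM. Reads of such near-identical copies can be split among them, so the level of a single copy is uncertain.

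*Fbxw24* and *Fbxw14*, members of an F-box and WD-40 family clustered on chromosome 9, were among the most abundant of these. *Fbxw24* ranged from 545 to 3613 CPM over NGO (median 1396) and from 4417 to 10298 CPM over FGO (median 6499), without overlap. *Fbxw14* averaged 799 ± 520 CPM over NGO and 3464 ± 1242 CPM over FGO, with overlapping cells. Of the 48 genes of the NLR, Oog, Obox, Oosp, Tcl1, Oas1 and Fbxw families, 45 reached 10 CPM. Of these, 31 (68.9%) were higher in FGO and 0 were lower, against 9.97% and 20.0% of all genes. The median log2 ratio of the 45 was 1.68. Members such as *Obox1* and *Nlrp9c*, at 7.99 and 7.73 CPM in NGO, reached 10 CPM in FGO alone, so their direction follows from that limit. Summed, these families took 21189 ± 3989 CPM in NGO and 44214 ± 5184 CPM in FGO.

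The sequences around the start of 5 of these genes are shown, namely *Oog3*, a pair of Obox copies and a pair of Fbxw copies. Copies that were not higher in FGO were not compared, and a link between sequence and level was not tested. Each sequence is 150 bases, from 100 before to 50 after the start (RefSeq, GRCm38.p6). In *Oog3* (chr4:144162602-144162751, minus strand) capitals mark the letters TATAAA. In the Obox pair (chr7:15547157-15547306 and chr7:15388751-15388900, both plus strand) they mark a run of 53 bases shared by both, and in the Fbxw pair (chr9:109287627-109287776 and chr9:109626010-109626159, both minus strand) a shared run of 55 bases.
Oog3: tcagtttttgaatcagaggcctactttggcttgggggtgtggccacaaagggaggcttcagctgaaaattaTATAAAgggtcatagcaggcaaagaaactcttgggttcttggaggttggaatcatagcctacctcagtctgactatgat
Obox1: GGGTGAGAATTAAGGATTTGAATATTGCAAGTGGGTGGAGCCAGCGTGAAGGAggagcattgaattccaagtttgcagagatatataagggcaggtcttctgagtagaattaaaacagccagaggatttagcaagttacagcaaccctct
Obox2: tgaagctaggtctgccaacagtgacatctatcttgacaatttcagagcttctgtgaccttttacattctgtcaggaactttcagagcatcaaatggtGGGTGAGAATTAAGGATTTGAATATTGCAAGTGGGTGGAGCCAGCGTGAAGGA
Fbxw14: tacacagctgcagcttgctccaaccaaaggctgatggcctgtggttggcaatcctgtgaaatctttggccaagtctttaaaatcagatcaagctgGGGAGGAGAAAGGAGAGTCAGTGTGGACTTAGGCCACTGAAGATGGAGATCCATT
Fbxw24: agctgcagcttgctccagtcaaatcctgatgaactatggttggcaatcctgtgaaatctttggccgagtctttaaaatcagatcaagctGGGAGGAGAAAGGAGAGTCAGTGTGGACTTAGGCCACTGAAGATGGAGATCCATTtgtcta

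The shared run lies at different distances from the annotated start in *Obox1* and *Obox2*. TATAAA was present, on either strand of the 300 bases from 250 before to 50 after the start, in 14.2% of the 27025 RefSeq promoters and in 6.59% of those of genes with at least 10 CPM. The 300 bases of *Oog3*, *Obox1*, *Obox2*, *Fbxw14* and *Fbxw24* held 1, 1, 2, 0 and 2 CG dinucleotides, against a median of 21 for genes with at least 10 CPM. Other named genes higher in FGO varied. *H3f3b*, *Dusp1*, *Pacsin1* and *Spin1* held 24, 31, 33 and 51, while *Gm16497*, *Gm813*, *H1foo* and *Pabpn1l* held 1, 4, 5 and 5. Shares over all genes higher in FGO are void as a check, because only 79.3% of them had a window.

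Beyond the families, genes of other kinds were far higher in FGO. *Pabpn1l*, an oocyte poly(A)-binding protein, ranged from 0 to 757 CPM over NGO (median 27.6) and from 163 to 1924 CPM over FGO (median 1212). The stages overlapped through a few NGO with much *Pabpn1l*, and the mean was 12.1-fold higher in FGO. *Dusp1*, a phosphatase of MAP kinases, averaged 13.4 ± 14.1 and 140.9 ± 82.8 CPM. *Pacsin1*, a membrane-bending protein, averaged 11.9 ± 13.6 and 120.2 ± 69.5 CPM, and *Abcg1*, a sterol transporter, 21.6 ± 20.7 and 192 ± 118.9 CPM. The predicted genes *Gm813*, *Gm16497*, *Gm6367* and *C87414* were 10.3-fold to 14.2-fold higher in FGO. Of these, *Gm813* was the most abundant, at 105.3 ± 75.6 CPM in NGO and 1308 ± 753 CPM in FGO.

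Chromatin and cell cycle genes led the abundant part of the higher group. *H1foo*, the oocyte linker histone, ranged from 1800 to 9802 CPM over NGO (median 4421) and from 1529 to 15179 CPM over FGO (median 10522). Its mean was 2.28-fold higher although the cells overlapped widely. *H3f3b*, which encodes histone H3.3, averaged 1641 ± 562 CPM in NGO and 7562 ± 2813 CPM in FGO. *Pttg1*, the securin that holds back chromatid separation, averaged 1417 ± 447 and 7123 ± 2270 CPM, and its lowest FGO (2756 CPM) lay just above its highest NGO (2719 CPM). *Spin1*, a reader of histone methylation, averaged 2133 ± 825 and 5304 ± 1250 CPM.

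Among the largest falls in FGO were a gene of meiotic prophase, *Sycp3*, and one of the primordial oocyte, *Sohlh1*, beside genes of other kinds. *Sycp3*, a lateral element protein of the synaptonemal complex, ranged from 230 to 2021 CPM over NGO (median 1132) and from 9.24 to 181 CPM over FGO (median 49.2). The stages did not overlap, and the mean was 18.3-fold lower in FGO. *Sohlh1*, a transcription factor of primordial oocytes, ranged from 93.7 to 795 CPM over NGO (median 387) and from 0 to 243 CPM over FGO (median 12.5). Some FGO reached the range of NGO. The mean was 13.7-fold lower, and 23.4-fold lower without the 5 FGO nearest NGO. *Krt79*, a keratin, averaged 117.8 ± 86.7 CPM in NGO and 5.29 ± 9.45 CPM in FGO. *Marcksl1*, an actin-linked substrate of protein kinase C, averaged 88.7 ± 54.3 and 4.23 ± 5.61 CPM. *Cox4i2*, an isoform of a cytochrome oxidase subunit, averaged 125.6 ± 61.9 and 8.94 ± 10.97 CPM. *Gin1*, *Adad2*, *Tmppe*, *Ogfr*, *Pcsk1n*, *Maged1* and *Hdac6* were 8.12-fold to 18.2-fold lower.

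The mRNAs of several abundant egg proteins were lower as a share of RNA in FGO. *Padi6*, a component of the cytoplasmic lattices, ranged from 4688 to 11606 CPM over NGO (median 7279) and from 731 to 4087 CPM over FGO (median 1742). The stages did not overlap, and the mean was 3.98-fold lower. *Tle6*, of the subcortical maternal complex, averaged 4350 ± 884 and 1623 ± 838 CPM. *Zp2*, the zona protein that sperm bind, averaged 4131 ± 975 CPM in NGO and 1234 ± 392 CPM in FGO, a 3.35-fold difference, while *Zp3* differed by 1.40-fold. *Uchl1*, a ubiquitin hydrolase, *Dynll1*, a dynein light chain, and *Mtmr14*, a lipid phosphatase, were 2.13-fold, 2.80-fold and 3.59-fold lower.

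The windows of *Sycp3* (chr10:88459487-88459636, plus strand), *Sohlh1* (chr2:25847199-25847348, minus strand) and *Padi6* (chr4:140742594-140742743, minus strand) are shown as examples of genes lower in FGO. They are on the same build and over the same 150 bases. Capitals mark GGGCGG on either strand.
Sycp3: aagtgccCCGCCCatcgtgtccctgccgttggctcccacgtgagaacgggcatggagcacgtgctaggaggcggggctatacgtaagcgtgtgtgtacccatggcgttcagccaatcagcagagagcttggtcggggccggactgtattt
Sohlh1: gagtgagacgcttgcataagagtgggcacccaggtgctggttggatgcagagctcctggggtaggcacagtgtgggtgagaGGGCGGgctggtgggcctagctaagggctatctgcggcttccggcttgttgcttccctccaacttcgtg
Padi6: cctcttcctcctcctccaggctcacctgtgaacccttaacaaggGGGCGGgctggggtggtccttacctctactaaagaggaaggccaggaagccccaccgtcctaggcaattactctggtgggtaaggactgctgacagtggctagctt

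GGGCGG was present on either strand in 35.9% of all RefSeq promoters of 300 bases and in 65.7% of those of genes with at least 10 CPM. Genes lower in FGO held it in 69.2%, near that share, and *Krt79*, *Adad2* and *Maged1*, also lower, did not hold it. Over the 300 bases, *Sycp3*, *Sohlh1* and *Padi6* held 15, 14 and 2 CG dinucleotides, so *Padi6* was as low in CG as the family genes shown above.

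Abundant RNAs that are not mRNA also differed. *Malat1*, a nuclear long noncoding RNA, ranged from 1254 to 8581 CPM over NGO (median 3837) and from 276 to 7759 CPM over FGO (median 1258). *Rn45s*, the ribosomal RNA precursor, ranged from 212 to 7838 CPM over NGO (median 1402) and from 115.7 to 6497 CPM over FGO (median 668). For *Malat1* the FGO median of 1258 CPM lay just above the lowest NGO at 1254 CPM, so many FGO lay below every NGO. Both RNAs had overlapping ranges between stages, and their means were 2.07-fold and 2.28-fold lower in FGO. Their part in the other differences was not tested.

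Only a few genes separated every cell. In 7 genes (0.0869% of those compared) every FGO lay above every NGO, and in another 7 (0.0869%) every NGO lay above every FGO. The first group was *Oog3*, *Fbxw24*, *Pttg1*, *Oosp2*, *Creld2*, *Pcgf1* and *C87414*. *Pcgf1*, a Polycomb subunit, ranged from 72.8 to 278 CPM over NGO and from 320 to 919 CPM over FGO. *Creld2*, an endoplasmic reticulum stress protein, ranged from 134.6 to 588 CPM and from 700 to 2575 CPM. The second group included *Padi6*, *Sycp3*, *Ctsd*, *Lamp1*, *Rbpms2* and *Cox4i1*. *Ctsd*, the lysosomal protease cathepsin D, ranged from 226 to 537 CPM over NGO and from 12.5 to 176 CPM over FGO. *Lamp1*, a lysosomal membrane protein, ranged from 848 to 1548 CPM and from 48.7 to 669 CPM. The number depends on single cells: it was 47 without the 5 FGO nearest NGO, 45 without the 10 shallowest cells of each stage and 7 when all cells were thinned to 50000 UMIs.

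The 6 abundant mRNAs chosen for a difference within 1.2-fold are described next. *Gdf9*, a growth factor that the oocyte sends to its granulosa cells, ranged from 2765 to 7304 CPM over NGO (median 4802) and from 1116 to 7250 CPM over FGO (median 5134). The ranges covered each other, and the means differed by 1.04-fold. *Dppa3*, which protects maternal DNA methylation, averaged 9134 ± 2884 CPM in NGO and 7868 ± 2918 CPM in FGO. *Khdc3*, of the subcortical maternal complex, averaged 4860 ± 746 and 4651 ± 1318 CPM. *Intu*, *Sub1* and *Rdx* were also within 1.2-fold.

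The medians of the growing stages did not lie between those of the end stages for these genes, which were chosen on NGO and FGO alone. Genes higher in FGO took a median of 6.33% of the UMIs of an NGO, 23.2%, 25.2% and 23.4% of those of GO1, GO2 and GO3, and 18.97% of those of an FGO. Of these 803 genes, 15.2% had their highest level in FGO and 681 genes had it in a growing stage, 320 of them (39.9%) in GO1. Of the 5637 genes within 2-fold, 11.6% had it in FGO and 24.2% in GO1. Genes lower in FGO took 18.03% in NGO, 4.08%, 4.29% and 4.92% in GO1, GO2 and GO3, and 6.19% in FGO. Of these 1615 genes, 8.73% had their lowest level in FGO, while 743 had it in GO1 and 633 in GO2. Of the 5637 genes within 2-fold, 9.37% had it in FGO, 36.1% in GO1 and 24.8% in GO2. The share with the lowest level in FGO was thus near that of the genes within 2-fold. *Sohlh1* averaged 0.693, 0.558 and 2.20 CPM in GO1, GO2 and GO3, below its 28.7 CPM in FGO. *Padi6* averaged 798, 965 and 1130 CPM there, also below FGO. *Oog3* was already at 2493 CPM in GO1.

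**Figure D3:**
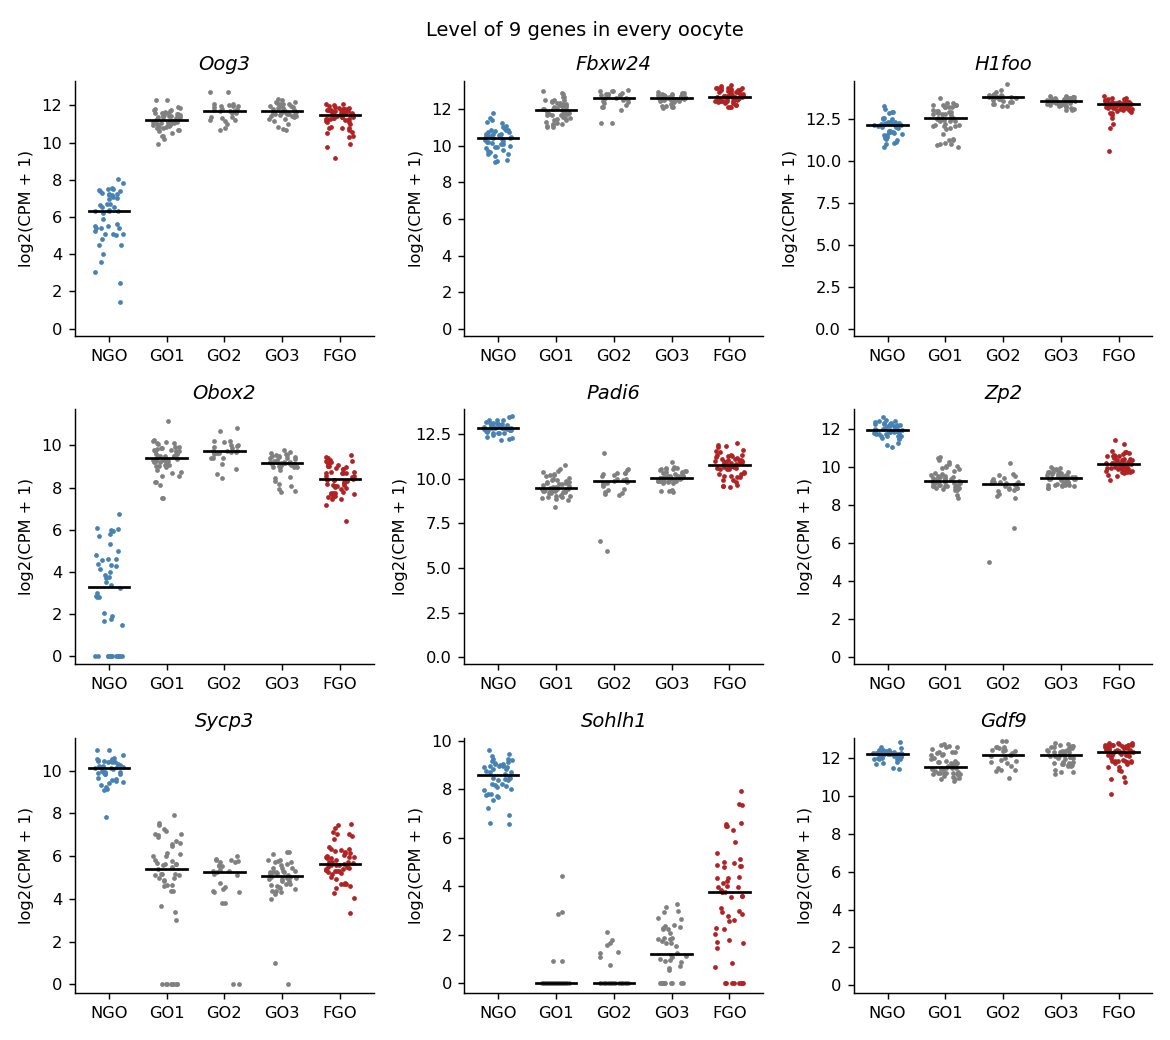
Level of 9 genes as log2(CPM + 1) in every oocyte of the 5 stages, with the median of each stage as a black line, NGO in blue, FGO in red and growing stages in grey. *Oog3* and *Obox2* are lowest in NGO, *Sycp3* and *Sohlh1* are highest in NGO, and *Gdf9* overlaps across all stages, with its lowest median in GO1.

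**Figure D4:**
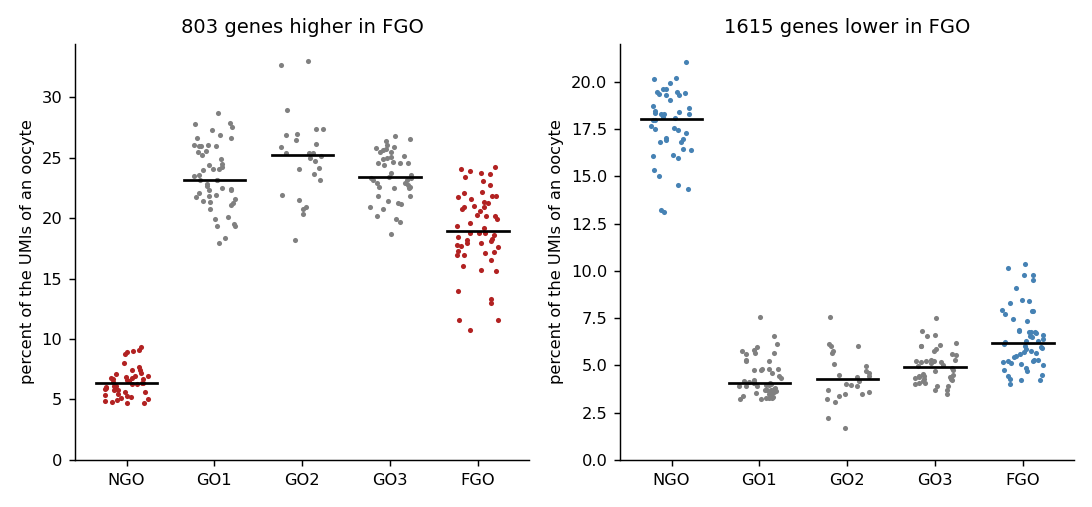
Percent of the UMIs of each oocyte that fell on the 803 genes higher in FGO (left) and on the 1615 genes lower in FGO (right), by stage, with the median as a black line. The genes were chosen on NGO and FGO, so only the grey growing stages are free of the choice. The medians of the growing stages lie above that of FGO on the left and below it on the right, while the cells overlap.

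Gene lists were read against the background of 9.97% higher and 20.0% lower. Genes of the synaptonemal complex and of meiotic recombination had 26 members at 10 CPM or more, with 11 lower (42.3%) and 0 higher. *Sycp1*, the transverse filament protein, averaged 165 ± 99.1 and 30.1 ± 19.2 CPM, and *Smc1b*, the meiotic cohesin, 678 ± 185 and 230 ± 150 CPM. *Syce2*, of the central element, stayed at 940 and 998 CPM. In the piRNA pathway, which silences transposons, 7 of 17 members (41.2%) were lower and 2 higher. *Mov10l1* averaged 187 and 38.99 CPM and *Mael* 302 and 88.4 CPM, while *Gtsf1*, a piRNA cofactor, averaged 872 and 1998 CPM. Summed with *Gtsf1*, the list stood at 2865 ± 391.6 and 3087 ± 593 CPM.

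Of 17 transcription factors and partners of the primordial oocyte, 8 (47.1%) were lower and 2 higher. With TMM scaling 6 were lower and 2 higher, with 1235 lower and 1090 higher over all genes. *Figla*, which switches on zona genes, averaged 611 ± 127.3 and 214 ± 99.8 CPM, and *Lhx8* 387 ± 109.1 and 180 ± 70.2 CPM. *Nobox*, another regulator of this set, averaged 1237 ± 326 and 1374 ± 559 CPM. Secreted factors went the other way in 2 of 6 members, with *Bmp15* at 110.9 ± 70.5 and 416 ± 206 CPM and *Fgf8* at 62.3 ± 50.9 and 195 ± 107.1 CPM.

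Genes of meiotic arrest and resumption had 5 of 33 members higher (15.2%) and 4 lower (12.1%). With TMM scaling 9 were higher and 2 lower, while over all genes higher calls rose from 803 to 1090 and lower calls fell from 1615 to 1235. Besides *Pttg1*, the spindle checkpoint kinase *Bub1b* averaged 52.9 and 208 CPM and the cyclin *Ccnb1* 436 and 887 CPM, while the phosphatase *Cdc25b* averaged 56.9 and 9.997 CPM. Histone variants and chaperones had 6 of 27 members higher (22.2%) and 1 lower (3.70%), with a median log2 ratio of -0.11, which was 0.07 with TMM scaling. Their sum was 13574 ± 1986 CPM in NGO and 25214 ± 3343 CPM in FGO, a difference that lay mostly in *H1foo* and *H3f3b*. Of 69 clustered histone genes only 4 reached 10 CPM, and 3 of them did so in FGO alone, so their direction follows from that limit. The other was *Hist1h2bc*, at 38.03 and 286 CPM. In DNA methylation, *Dnmt3a* averaged 263 ± 102.3 and 252 ± 76.8 CPM, and *Uhrf1*, the partner of maintenance methylation, 1138 ± 194 and 321 ± 164 CPM.

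Several housekeeping lists leaned towards NGO. Cytoplasmic ribosomal proteins had 23 of 79 members lower (29.1%) and 0 higher, with a median log2 ratio of -0.78 and a sum of 45061 ± 7672 CPM in NGO and 29313 ± 6391 CPM in FGO. With TMM scaling 17 of 78 were lower and the median was -0.62. Over all genes that scaling took lower calls from 1615 to 1235 and higher calls from 803 to 1090. The same scaling left 9 of 23 antioxidant, 9 of 20 glycolysis and 10 of 26 synaptonemal genes lower, and 33 of the 45 oocyte family members higher. Mitochondrial ribosomal proteins had 3 of 77 members lower and 4 higher. Antioxidant enzymes had 11 of 22 members lower (50.0%) and 0 higher, among them *Prdx4* at 73.95 and 10.1 CPM, while *Prdx1* stayed at 2394.5 and 2327 CPM. Glycolysis and pyruvate genes had 10 of 20 lower (50.0%) and 0 higher, but 6 of 21 lower and 2 higher by summed UMIs. By summed UMIs 1302 genes were lower and 920 higher over all genes. *Pkm*, a pyruvate kinase, averaged 857 and 376 CPM. *Ldhb*, a lactate dehydrogenase subunit that held most of that list's UMIs, averaged 10756 ± 2521 and 12921 ± 2340 CPM. Proteasome subunits had 4 of 35 lower (11.4%) and splicing factors 12 of 59 (20.3%), near or under the background.

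**Figure D5:**
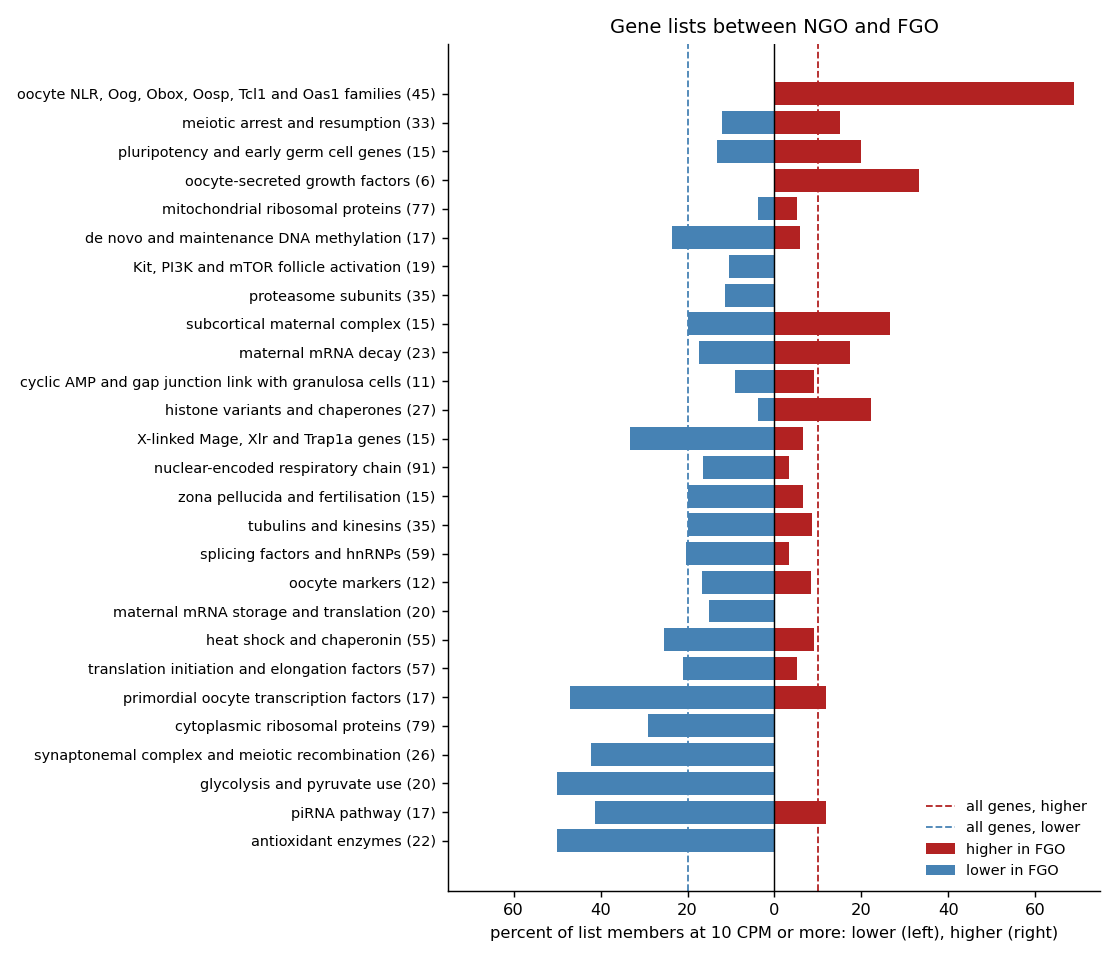
Percent of the members of each gene list that were at least 2-fold lower (left, blue) or higher (right, red) in FGO, among members with 10 CPM or more, whose number is in brackets. Dashed lines give the same for all 8055 genes. The oocyte families stand at 68.9% higher, and antioxidant and glycolysis genes at 50.0% lower.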

How the data were processed

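Single oocytes were sequenced with cell barcodes and UMIs. The authors sorted reads by barcode, aligned them with Tophat to the mm9 transcriptome, removed duplicates by UMI, filtered cells on detected genes, transcripts and spike-ins, and deposited raw UMI counts per gene and cell. The series names 296 cells, and the deposited table holds 223. From these counts CPM per cell and its mean per stage were computed (Python 3.11.15, pandas 2.3.3). A call needed a 2-fold difference and a mean of 10 CPM in whichever stage was higher. Depth was 51400 to 3828823 UMIs per cell. Intervals on summed UMIs are exact binomial (95%) and cover counting error only. No doublet caller was run, since cells were picked by hand. The size rule was tested on simulated cells with the same spread set for every gene and no library effect. That test does not cover differences between libraries.

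Genes named are the 12 largest differences each way at 50 CPM or more, the 8 most abundant called genes each way, the 6 most abundant within 1.2-fold, list members by size or role, and the genes that separate every cell. Some genes that this rule names are not reported here. Members and lists were chosen with earlier results of these data known. Scaling used edgeR 4.0.16 and DESeq2 1.42.0. The iscCOOL-seq data were not analysed here.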

Additional observations from a re-analysis of the deposited data

How the results depend on the processing

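No paired analysis was possible because cells carry no library or replicate number. The counts of higher and lower genes stayed within 1.5 times of 803 and 1615 under summed UMIs, medians, thinning, either scaling and leaving out the 10 deepest or 10 shallowest cells. Limits of size moved them by construction: with no limit on CPM there were 3813 higher and 4762 lower genes, with at least 50 CPM 395 and 646, at 1.5-fold 1538 and 2799, and at 4-fold 185 and 314. The number of genes whose cells did not overlap moved from 14 to 7 with thinned cells, to 45 without the 10 shallowest cells of each stage, and to 47 without the 5 FGO nearest NGO, a setting chosen after seeing the data. By summed UMIs 920 genes were higher and 1302 lower, so 41.4% of calls were higher. With the median of ratios 45.6% were. No gene named here that was called changed direction under these settings, *Amh* and *Foxl2* not being tried. *Malat1* fell under 2-fold without the deepest cells and with either scaling, *Uchl1* and *Lhx8* with either scaling, *Lhx8*, *Gtsf1* and *Pkm* by summed UMIs, *Ccnb1* when thinned and without the deepest cells, *Krt8* without the deepest cells and *Rn45s* without the shallowest. *Ddx4* passed 2-fold lower when thinned. Without library or replicate the spread between samples is unknown.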

Other observations

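The X chromosome held the largest share of genes lower in FGO. Of 220 X-linked genes with at least 10 CPM, 67 (30.5%) were lower and 18 (8.18%) higher, against 20.0% and 9.97% of all genes. Among autosomes the share lower ran from 11.9% on chromosome 12 to 27.9% on chromosome 15. Positions were known for 7238 of the 8055 genes (mm9, GENCODE vM1). *Maged1* (chrX:91780813-91787482) averaged 510 ± 196 CPM in NGO and 62.8 ± 77.2 CPM in FGO, *Hdac6* (chrX:7507246-7525015) 79.5 ± 39.4 and 9.73 ± 9.47 CPM, and *Pcsk1n* (chrX:7496948-7501536) 80.5 ± 61.2 and 4.42 ± 4.40 CPM. No test was run on this pattern.

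Of 55 heat shock and chaperonin genes, 14 (25.5%) were lower in FGO and 5 (9.09%) higher, against 20.0% and 9.97% of all genes. With TMM scaling 9 of 56 were lower and 8 higher, while over all genes lower calls fell from 1615 to 1235 and higher calls rose from 803 to 1090. *Hspd1*, the mitochondrial chaperonin, averaged 582 and 197 CPM, while *Dnajb1* averaged 296 and 822 CPM. Tubulins *Tuba1c* and *Tuba1b* averaged 638 and 487 CPM in NGO and 201 and 178 CPM in FGO, and *Tubb5* 187 and 254 CPM.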
